A study of Rattus norvegicus with 24 samples.

Results

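Epiphyseal cartilage and the resting zone are neighbouring pieces of the same young bone end, and they were compared gene by gene in the proximal tibia of 1-week-old rats. The comparison took the 5 arrays labelled as resting zone and the 4 labelled as epiphyseal cartilage, 9 of the 24 arrays of the study. The other 15 arrays hold the proliferative, transition and hypertrophic zones, 5 each. They served to estimate the spread and the level of each animal, and through that level they also entered the fitted differences. The 5 animals are numbered in the labels, and animals 1, 2, 4 and 5 gave both pieces. The resting array of animal 3 has no epiphyseal partner. No rat of these groups was castrated, and no treatment, strain or genetic change is named. Male rats are named for the resting arrays, and no sex is given for the epiphyseal arrays. Sections of 60 µm were fixed, stained and cut apart by hand, so each array holds the mixed RNA of a dissected strip and not of a sorted cell type. The wording of the labels differs between the groups, so a batch that followed the wording cannot be told apart from the tissue. The labels tie each number to 1 animal, and the fit took out the level of each animal. The p-values rest on how far the differences between zones vary from animal to animal. That spread is pooled over all 24 arrays and not taken from the compared groups alone.

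Epiphyseal cartilage is the mass of cartilage at the end of a long bone before bone forms inside it. In the rat tibia its centre matures after birth: chondrocytes enlarge, vessels grow in, and a secondary centre of ossification appears. The resting zone is the layer of small, slowly dividing chondrocytes below it, which feeds the columns of the growth plate and, with its surroundings, is the known source of parathyroid hormone-related protein. Indian hedgehog, made by maturing chondrocytes further down, completes that loop, and the title of the study names it.

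A probe set is a group of oligonucleotides on the array that reads 1 transcript. Its value here is the MAS5 signal, an intensity on a linear scale with no unit, which can be compared between arrays for 1 probe set but not between probe sets. Differences are given on the log2(signal + 16) scale as resting minus epiphyseal, with the standard error of the fit, and understate the change of dim probe sets. A probe set was called when limma gave a Benjamini-Hochberg adjusted p below 0.05 over all 19213 tested probe sets and a fold of at least 2. By that rule 290 probe sets differed (1.51% of those tested), of which 125 were higher in the resting zone (0.651%) and 165 lower (0.859%). With 1 probe set standing for each gene, 177 of 10558 genes were called (1.68%), 66 higher (0.625%) and 111 lower (1.05%). The arrays of the groups did not overlap at all for 568 genes (5.38%). The median difference over all genes was 0.02, close to 0.

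**Figure D1:**
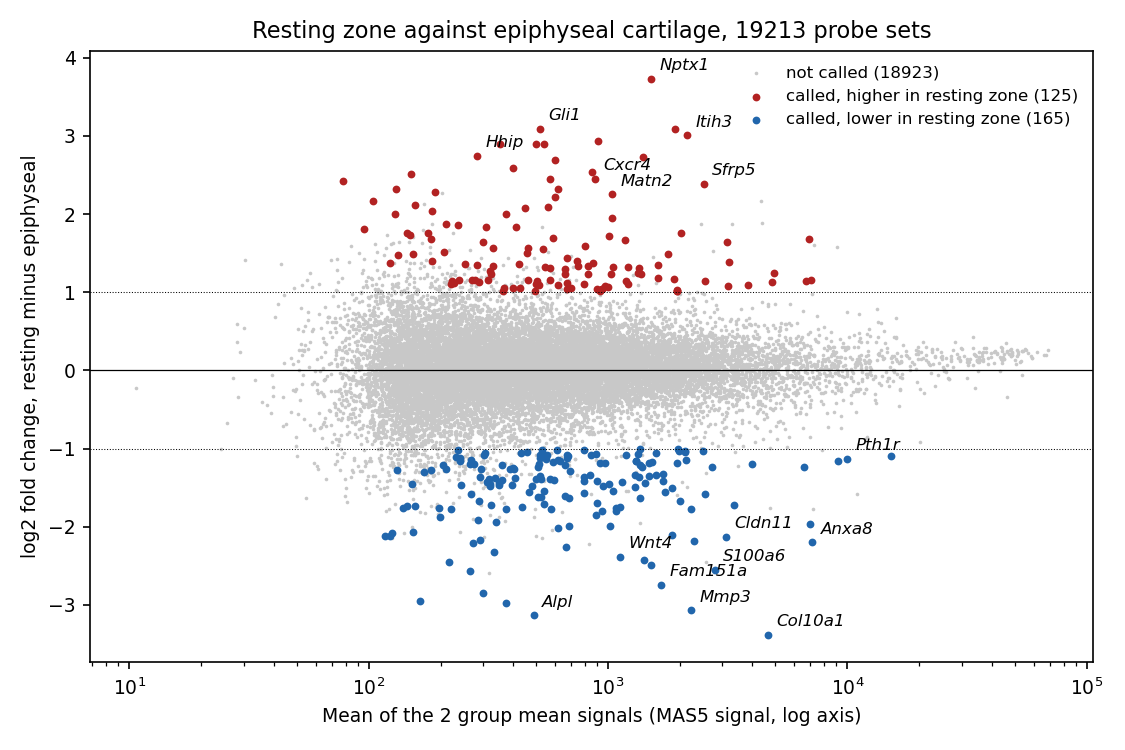
Log2 difference, resting minus epiphyseal, against the mean of both group mean signals (log axis) for 19213 probe sets, with 16 named genes labelled. Red points mark the 125 probe sets called higher and blue points the 165 called lower, and dotted lines mark a 2-fold change. Nptx1, Gli1 and Itih3 lie at the top and Col10a1, Alpl and Mmp3 at the bottom.

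Both tissues read as cartilage. The 6 tested chondrocyte markers had a summed signal of 175361 to 284222 in the epiphyseal arrays and 171587 to 332736 in the resting arrays, and none of the 6 was called. Col2a1, the main collagen of cartilage, stood at 64908 ± 21413 (SD, n = 4) in epiphyseal cartilage and 72156 ± 27996 (SD, n = 5) in the resting zone. Matn1, a matrix protein of immature cartilage, stood at 17572 ± 6356 (SD, n = 4) and 21903 ± 10151 (SD, n = 5). The arrays of both groups overlap for each of these genes.

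In the mean over markers of osteoclasts, macrophages and vessels the epiphyseal arrays of animals 1 and 2 stood apart from those of animals 4 and 5. That split does not hold over all tested probe sets. There the epiphyseal array of animal 5 correlated at r = 0.832, 0.851 and 0.889 with those of animals 1, 2 and 4. The other epiphyseal pairs stood at 0.915 (1 and 2), 0.878 (1 and 4) and 0.906 (2 and 4). The array of animal 5 also had the highest median signal, 244.6. Markers of osteoclasts and macrophages (8 of 15 listed genes tested) had a mean log2 signal of 11.96, 10.68, 8.27 and 8.02 in the epiphyseal arrays of animals 1, 2, 4 and 5. In the resting arrays of animals 1 to 5 it was 10.18, 7.33, 8.73, 7.57 and 8.11. The mean of the 7 tested endothelial markers followed the same split, at 9.93, 9.46, 7.05 and 6.59 in epiphyseal cartilage and 8.46, 7.44, 7.32, 6.6 and 7.51 in the resting zone. Egfl7, a member of that list, did not follow it, at 929, 1065, 1112 and 709 in the epiphyseal arrays. Mmp9, a protease of osteoclasts and other invading cells, read 24859, 18274, 1004 and 732 in the epiphyseal arrays and 12238, 579, 1219.6, 421 and 925 in the resting arrays, where animal 1 was also high. No marker on these lists was called. Their mean difference was -1.79, -3.35, -0.7 and 0.08 (osteoclast and macrophage) and -1.47, -2.02, -0.44 and 0.92 (endothelium) in animals 1, 2, 4 and 5. The median difference over the osteoclast and macrophage list was -1.58 with all arrays and 0.31 without epiphyseal arrays 1 and 2 (numbered by animal), and that over the endothelial list went from -0.82 to 1.22. The pairs left, animals 4 and 5, had endothelial means of opposite sign. Most endothelial markers were also dim there. All 7 summed to 1656 and 1158 in epiphyseal arrays 4 and 5, of which Egfl7 gave 1112 and 709, beside array medians of 170.9 and 244.6. A fit without epiphyseal arrays 1 and 2 keeps the resting arrays of all animals and sets them against the other zones. Its differences therefore need not match those of animals 4 and 5 alone. In that fit 114 probe sets were called higher and 106 lower, and 146 of the 290 calls were made again. All 290 kept their sign, in a fit that shares the other arrays on which they were chosen.

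Other cell types moved less evenly. Of 13 tested skeletal muscle genes 12 were higher in the resting zone, with a median of 1.15, and the summed signal ran from 13616 to 70140 in the epiphyseal and from 20479 to 123785 in the resting arrays. Their mean log2 difference was -0.3, 0.64, 0.28 and 2.3 in animals 1, 2, 4 and 5. Tnni2, the fast troponin I, was the only muscle gene called: it read 5354, 3182, 3615 and 6005 in the epiphyseal arrays and 11368, 7061, 8349, 7976 and 12845 in the resting arrays. Those values do not overlap, and the difference was 1.15 ± 0.18 (adjusted p = 0.000284). The per-animal differences were 1.08, 1.15, 1.14 and 1.1 in animals 1, 2, 4 and 5. The fit without epiphyseal arrays 1 and 2 gave 0.92 ± 0.22, which is under 2-fold. Animals 4 and 5 themselves each differed by more than 2-fold. Acta1, the skeletal actin, read 13568, 504, 1431 and 2548 in the epiphyseal and 14121, 1353, 32949.9, 1888 and 17697 in the resting arrays, with high values in both arrays of animal 1 and the resting arrays of animals 3 and 5 (adjusted p = 0.137). Leukocyte markers (7 tested) had a median of -1.15, osteoblast markers (4) of -0.43, fibroblast and tendon markers (14) of -0.13, erythroid markers (4) of -0.09, adipocyte markers (2) of 0.23 and nerve markers (4) of -0.18, with 0 genes called in each of these lists. The part that these cell types had in the differences below was not tested. In bulk tissue, fewer cells of a type and less RNA per cell cannot be told apart.

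**Figure D2:**
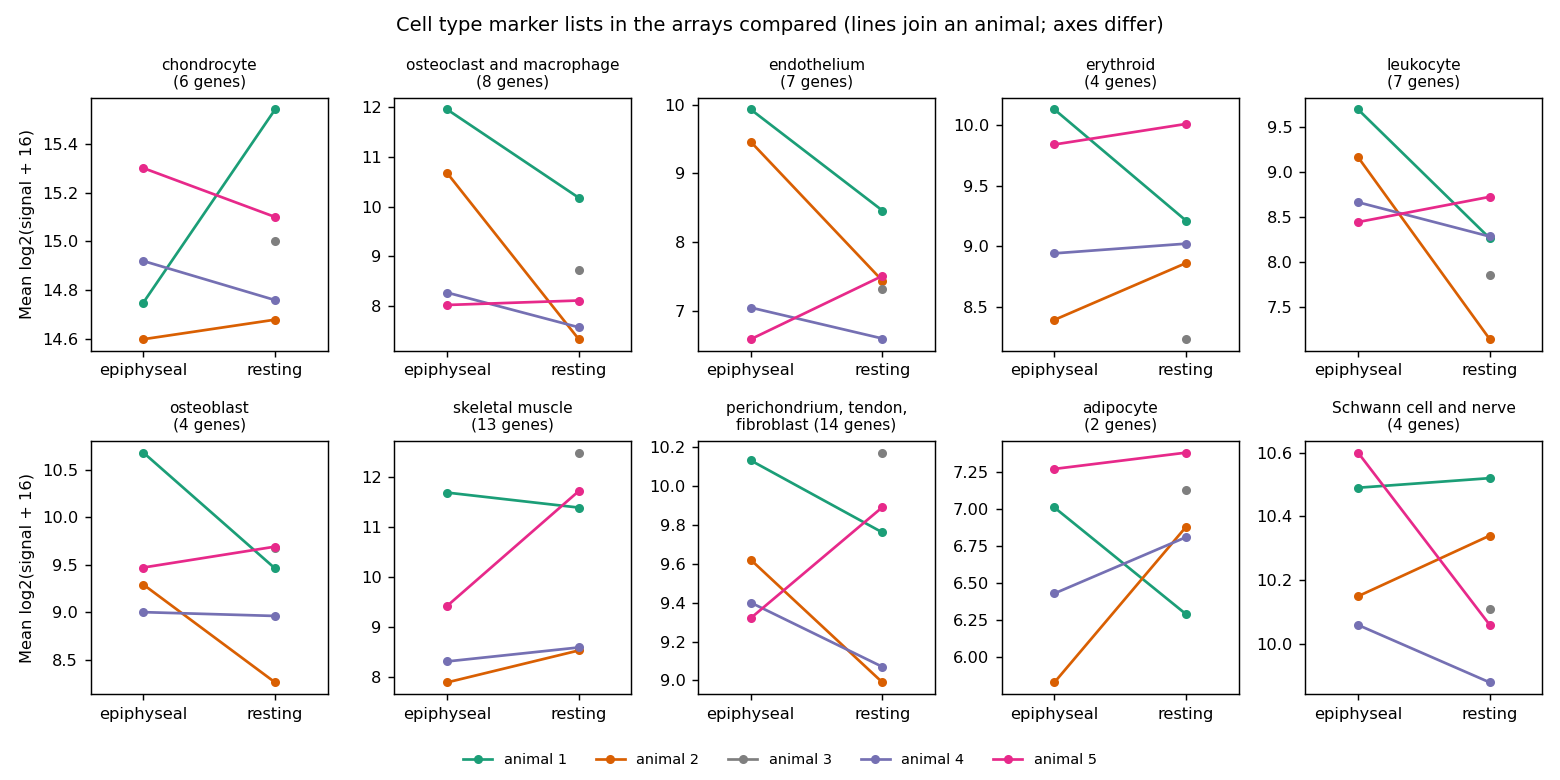
Mean log2(signal + 16) of 10 cell type marker lists in the 4 epiphyseal and 5 resting arrays, with lines joining the arrays of 1 animal and a lone point for the resting array of animal 3; the vertical axes differ. The osteoclast and endothelial lists are highest in the epiphyseal arrays of animals 1 and 2, while the chondrocyte list stays between 14.6 and 15.54 in all 9 arrays.

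Gli1 and Hhip, both targets of hedgehog signalling, rose in the resting zone. In the canonical pathway the ligand releases Smo from its receptor, Gli proteins enter the nucleus, and Gli1 and Hhip are induced as targets. Gli1, the transcription factor gene that serves as a readout of the pathway, read 164, 214, 42.1 and 66.3 in the epiphyseal arrays and 934, 633, 538, 1079.5 and 1376 in the resting arrays. All 5 resting arrays lay above all 4 epiphyseal ones, and the epiphyseal arrays of animals 1 and 2 were the highest of their group. The per-animal differences were 2.4, 1.5, 4.24 and 4.08, and without those 2 arrays the fitted difference was 3.98 ± 0.33 against 3.09 ± 0.33 with them. Hhip, which encodes a membrane protein that binds and sequesters hedgehog, read 77.8, 106, 55.1 and 36.1 and then 472, 609, 406, 385 and 611. Its lowest resting array was above its highest epiphyseal array, with a difference of 2.75 ± 0.41 (adjusted p = 0.000235).

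The ligand and its transducers were not called. Ihh itself read 547, 34.8, 402 and 199 in epiphyseal cartilage and 136, 168, 127, 199 and 173 in the resting zone, so the resting values fell inside a wide epiphyseal range (difference -0.24 ± 0.43, adjusted p = 0.876). Smo, the membrane protein that passes the signal on, stood at 752 ± 220.2 (SD, n = 4) and 1185 ± 214 (SD, n = 5) (adjusted p = 0.0768). Gli2, the main activator among the Gli proteins, stood at 1208 ± 396 (SD, n = 4) and 1726 ± 586 (SD, n = 5) (adjusted p = 0.379). Boc, a co-receptor, had means of 7905 ± 2062 (SD, n = 4) and 9668 ± 905 (SD, n = 5). Kif7, a kinesin of the cilium that regulates Gli proteins, had a difference of 0.52 ± 0.21. Differences lay between -0.64 for Sufu, an inhibitor of Gli proteins, and 0.21 for Dhh, another ligand, in the members Dhh, Disp1, Gpr161, Stk36 and Sufu, of which Sufu had the lowest adjusted p, 0.639. Scube1, a secreted protein of the family that helps release the ligand, had an adjusted p of 0.0362 but a difference of -0.77 ± 0.20, short of 2-fold. It was called without epiphyseal arrays 1 and 2 (-1.10, adjusted p = 0.0217).

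Pth1r, the receptor for parathyroid hormone-related protein, was the list's only fall. It read 11676, 11274, 18178 and 14684 in the epiphyseal arrays and 5750.2, 5169, 4449.6, 8569 and 5648 in the resting arrays. The groups do not overlap, and the difference was -1.13 ± 0.18 (adjusted p = 0.000357); a second tested probe set of the gene gave -0.42 (adjusted p = 0.564). Its call was lost without epiphyseal arrays 4 and 5, where the difference was -0.82 (adjusted p = 0.0325). In all, 2 rose and 1 fell of the 14 tested genes in the list of hedgehog and parathyroid hormone-related protein signalling. The shares over all genes were 0.625% and 1.05%. The list median was 0.12 against 0.02 over all genes. Ptch1, Gli3 and Pthlh were not analysed here, and Shh, Cdon and Gas1 were on the array below the filter on low values.

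Apart from the hedgehog targets, the 15 largest rises joined secreted proteins, receptors and intracellular regulators. Nptx1, a secreted pentraxin known from synapses, read 73.6, 156, 213 and 288 in the epiphyseal arrays and 731, 4863, 2133, 4031 and 2452 in the resting arrays. Animal 1 was lowest in both tissues, so its difference of 3.06 was close to the 3.02 of animal 5, and the fit gave 3.73 ± 0.48, a 13.3-fold rise (adjusted p = 3.84e-05). Itih3, a heavy chain that is linked to hyaluronan, read 191, 474, 419 and 753 and then 1330.2, 5006, 2147, 3385 and 7207, with no overlap. The 4 animals differed by 2.7 to 3.36, a narrower span than for Nptx1, and the fit gave 3.01 ± 0.30. Cxcr4, the receptor of the chemokine Cxcl12, read 251, 397, 140.1 and 248 in epiphyseal cartilage and 1364, 2294, 953, 1307 and 1595 in the resting zone. All 3 of its tested probe sets were called, with differences of 1.73, 2.46 and 2.90. Its ligand Cxcl12 was not, at -0.27 ± 0.50 (adjusted p = 0.876), with a single resting array, that of animal 3, at 1131.

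Matn2, a matrilin of the extracellular matrix, was at 233, 345, 303 and 373 in the epiphyseal and 1845, 2276, 2421, 1295 and 961 in the resting arrays. It rose by 2.26 ± 0.22 (adjusted p = 8.16e-07) and was higher still in the proliferative zone, at 8350.4. Adgrb1, an adhesion receptor, read 26.0, 98.3, 70.8 and 331 and then 462, 636, 403, 710.1 and 1146, with the epiphyseal array of animal 5 nearest to the resting values. Tgif1, a homeobox repressor of Smad and retinoid signalling, read 429.8, 169, 167 and 31.7 and then 703, 662, 963, 618 and 564: the resting arrays were even, and the epiphyseal arrays ranged widely below them. Lcn2, a lipocalin that binds bacterial iron carriers, had means of 444 ± 155 (SD, n = 4) and 1642 ± 498 (SD, n = 5). Gnat3, a G protein subunit known from taste cells, had means of 125 ± 43.4 (SD, n = 4) and 491 ± 198 (SD, n = 5). Mfap3l, a membrane glycoprotein, Arhgap8, a GTPase-activating protein, and Prkcq, a protein kinase C, completed the rises with overlapping arrays and low epiphyseal signals, at 2.51 ± 0.50, 2.32 ± 0.60 and 1.81 ± 0.49. The calls of Lcn2, Gnat3, Arhgap8 and Prkcq were lost without epiphyseal arrays 1 and 2, with adjusted p of 0.205, 0.166, 0.305 and 0.0808. Their differences were then 1.48, 1.78, 1.92 and 2.15, against 1.95, 1.84, 2.32 and 1.81 with all arrays, so that of Gnat3 hardly moved and that of Prkcq was larger. Without the replicate block the adjusted p was 0.0505 for Arhgap8 and 0.0714 for Prkcq. Gnat3 was also lost with a pseudocount of 1 (0.075), and Prkcq with a pseudocount of 64 (0.072), no filter (0.0595) and the 9 arrays alone (0.101). They were also lost without some single animals, Lcn2 without animal 1 or 2 (adjusted p = 0.0639 and 0.0869) and Gnat3 without animal 1, 2, 3 or 4 (0.0896, 0.143, 0.058 and 0.0658). The same held for Arhgap8 without animal 1, 2 or 4 (0.112, 0.265 and 0.16) and Prkcq without animal 2, 3, 4 or 5 (0.271, 0.0617, 0.214 and 0.122). Mfap3l was lost without animal 1 or 4 (adjusted p = 0.0591 and 0.0629) or epiphyseal arrays 4 and 5 (0.0851), as were Gnat3 and Prkcq without those (0.0743 and 0.221).

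**Figure D3:**
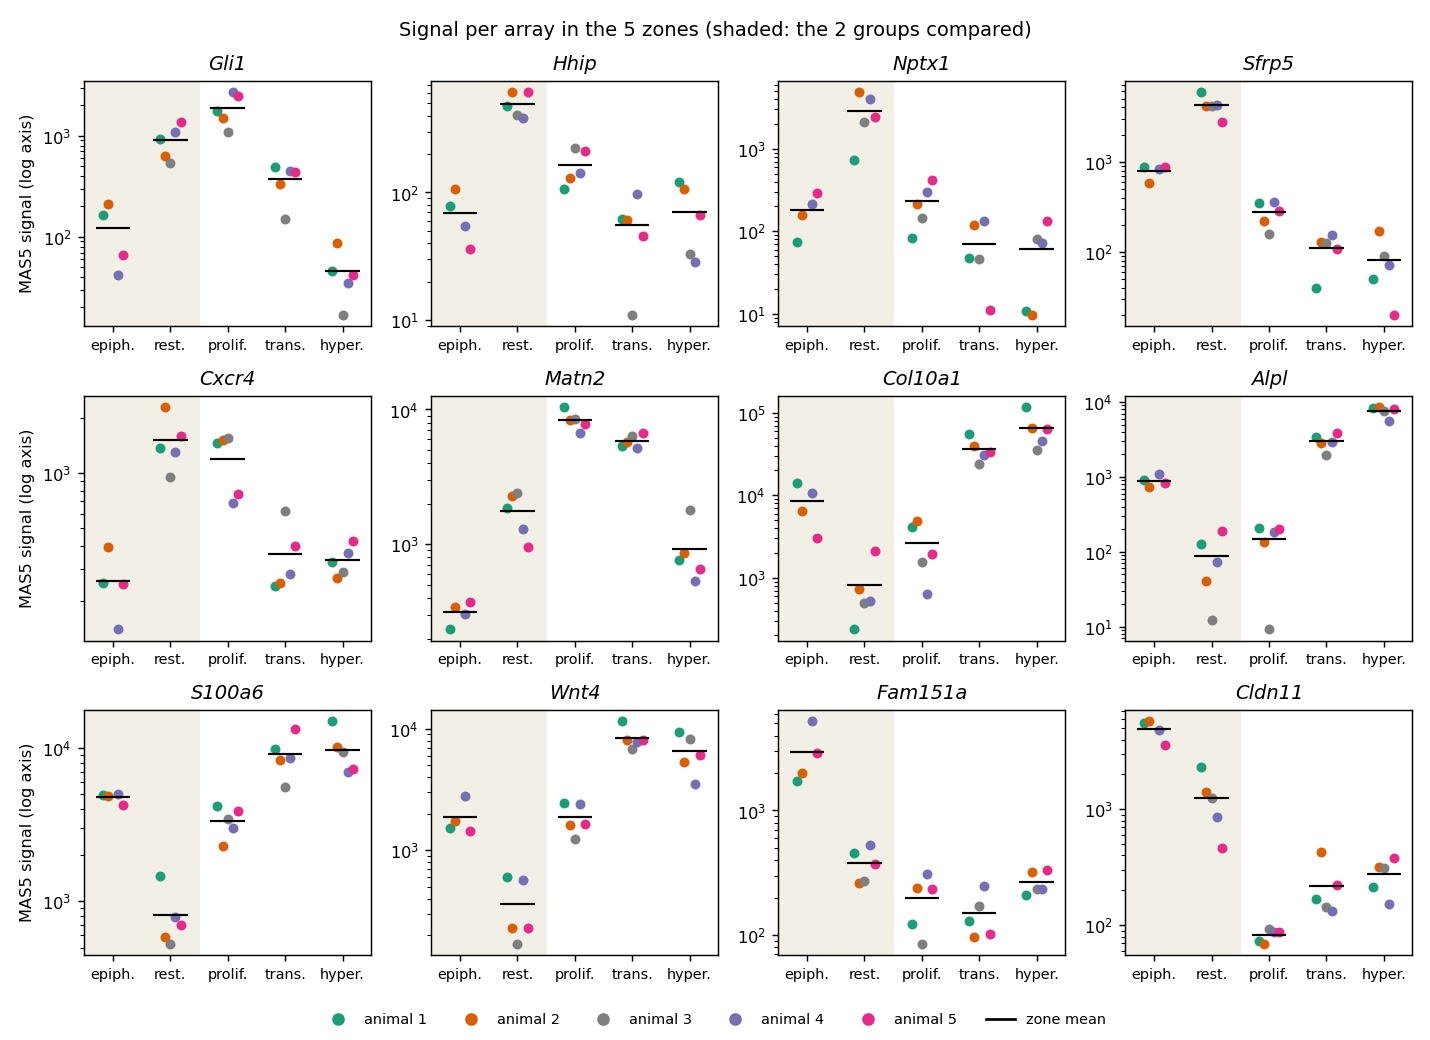
MAS5 signal per array (log axis) of 12 genes in epiphyseal cartilage and the resting, proliferative, transition and hypertrophic zones, with points coloured by animal and a bar at each zone mean; the groups compared are shaded. Gli1, Cxcr4 and Matn2 stay high in the proliferative zone, Sfrp5, Hhip and Nptx1 are highest in the resting zone, Col10a1, Alpl and S100a6 are lowest in the resting zone, and Fam151a and Cldn11 are highest in epiphyseal cartilage.

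Among Wnt genes 1 secreted inhibitor rose and 1 ligand fell. Wnt proteins drive chondrocyte maturation, and secreted frizzled-related proteins bind them outside the cell. Sfrp5, a member of that family, read 868, 579.6, 823 and 883 in the epiphyseal arrays and 5893, 4179, 4119.7, 4298 and 2726 in the resting arrays. The groups do not overlap, and the rise was 2.39 ± 0.36 (adjusted p = 0.000235). Wnt4, a ligand of maturing cartilage, went the other way, from 1528, 1742, 2794 and 1440.3 to 599, 229.9, 169, 569.9 and 229. The highest resting array, that of animal 1, was well below the lowest epiphyseal array, and the fall was -2.38 ± 0.28 (adjusted p = 7.35e-06). Wnt5b had an adjusted p of 0.00182 and non-overlapping arrays but a difference of -0.99 ± 0.18, just short of 2-fold, so it was not called. Without epiphyseal arrays 1 and 2 it was (-1.11, adjusted p = 0.0134). Frzb, the most studied inhibitor of the family in cartilage, had similar means of 36994 ± 7855 (SD, n = 4) and 31158 ± 4588 (SD, n = 5). Of 7 tested secreted inhibitors 1 rose and 0 fell (median -0.23), and of 5 tested ligands 0 rose and 1 fell (median -0.76). Among all genes 0.625% rose and 1.05% fell. None of 10 tested receptors and response genes was called, Axin2, a target of the pathway, being at -0.77 ± 0.34 (adjusted p = 0.285).

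Of the bone morphogenetic protein ligands, Bmp2 and Bmp6 fell and Bmp7 and Gdf10 rose. Bmp2, a ligand that promotes cartilage maturation and bone, read 1321, 1572, 2085 and 1938 in the epiphyseal arrays and 463, 396, 572, 579.8 and 557 in the resting arrays. The values are far apart in each of the 4 animals, whose differences spanned -1.95 to -1.48, and the fit gave -1.75 ± 0.20 (adjusted p = 5.54e-06). Bmp6, another such ligand, read 465, 660.2, 1229 and 691 and then 242, 152, 208, 378 and 389.7, without overlap (-1.35 ± 0.27). A second probe set of Bmp6 gave -0.30 (adjusted p = 0.777), while the second of Bmp2 was also called, at -1.61. Bmp7, a ligand of the osteogenic group, rose from 140.0, 129, 168 and 374 to 535, 403, 274, 449 and 568; the epiphyseal array of animal 5 lay among the resting values. Gdf10, a related ligand, rose from 88.4 ± 31.1 (SD, n = 4) to 325 ± 85.9 (SD, n = 5) and had a far higher mean of 5086 in the proliferative zone. Without the 2 epiphyseal arrays Bmp2 and Bmp6 were called again and Bmp7 and Gdf10 were not (adjusted p = 0.0859 and 0.307), at differences of 1.03 and 1.25 against 1.23 and 1.52 with all arrays. Gdf10 was also not called with a pseudocount of 1 (adjusted p = 0.149) or no trend (0.0746). Bmp6 was not called without animal 2 (adjusted p = 0.0833) or epiphyseal arrays 4 and 5 (0.0699), Bmp7 without animal 1 or 2 (adjusted p = 0.0542 and 0.056) and Gdf10 without animal 1, 2 or 5 (adjusted p = 0.0668, 0.3 and 0.0803) or those 2 arrays (0.0546).

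Bmper, a secreted protein that binds these ligands, had even signals within each tissue: 159, 146, 166 and 162 in the epiphyseal arrays and 785, 947, 990.1, 993 and 1236 in the resting arrays. The rise was 2.45 ± 0.35 (adjusted p = 0.000163). Nog and Bambi, a secreted antagonist and a decoy receptor, did not pass, at -0.66 ± 0.21 and -0.68 ± 0.21 (adjusted p = 0.0999 and 0.09). Id2, a direct target of the ligands, fell from 2523, 1275, 1909 and 1704 to 827, 600.3, 681, 832 and 895, with no overlap and a difference of -1.16 ± 0.20 (adjusted p = 0.000933). Its relatives Id1 and Id3 had differences of -0.68 ± 0.22 and -1.42 ± 0.47 and were not called (adjusted p = 0.111 and 0.126). Of 9 tested ligands 2 rose and 2 fell (median 0.33), and of 9 antagonists and modulators 1 rose and 0 fell (median -0.06). Of 15 receptors, Smads and Id genes 0 rose and 1 fell (median -0.34). Among all genes 0.625% rose and 1.05% fell. No member of the 11 tested genes of the transforming growth factor beta list was called (median -0.27), the nearest being Tgfb2 at -0.57 ± 0.17 (adjusted p = 0.0671).

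The largest fall was in Col10a1, the collagen that marks hypertrophic cartilage. It read 13967, 6418, 10599.7 and 3034 in the epiphyseal arrays and 236, 727, 490.4, 525 and 2136 in the resting arrays. The groups do not overlap, but the step was uneven: -5.79 in animal 1, -3.11 in animal 2, -4.30 in animal 4 and -0.50 in animal 5, whose epiphyseal array was the lowest of its group and whose resting array was the highest. The fit gave -3.38 ± 0.50 (adjusted p = 0.000183), and -3.26 ± 0.65 without epiphyseal arrays 1 and 2. The epiphyseal mean of 8505 stood between the 823 of the resting zone and the 65526 of the hypertrophic zone. Alpl, the alkaline phosphatase that frees phosphate for mineral, read 899, 726, 1111 and 823 and then 125, 40.8, 12.4, 73.5 and 189.9. Here the epiphyseal arrays were close together and the fall was -3.13 ± 0.35 (adjusted p = 5.34e-06). Phospho1, a phosphatase of matrix vesicles, fell from 1038, 908, 1788 and 3083 to 336, 229, 214, 639 and 799, by -1.80 ± 0.24, with the 4 animals between -1.93 and -1.46.

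Besides Col10a1, Alpl, Phospho1 and Pth1r, no member of the hypertrophy and mineralization lists was called lower. Vegfa, the growth factor that draws vessels into cartilage, had its higher mean in the resting zone, at 5504 ± 2512 (SD, n = 5) against 3270.3 ± 2406 (SD, n = 4), with overlapping arrays (adjusted p = 0.211). Fgfr1, a receptor expressed in hypertrophic cells, rose from 1206, 1635, 1519 and 1016 to 2324, 2413, 2577, 2654 and 2707, although its second probe set gave -0.13 (adjusted p = 0.942). Its call was lost without animal 3 (difference 0.92) or animal 5 (0.89, adjusted p = 0.0859), or epiphyseal arrays 4 and 5 (0.72, adjusted p = 0.2). It also fell short of 2-fold with a pseudocount of 64 (0.99), without the replicate block (0.93, adjusted p = 0.0847), with a random block (0.97), in the 9 arrays alone (0.92) and with array weights (0.89). Enpp1, which makes the mineral inhibitor pyrophosphate, was higher in the resting zone by 0.63 ± 0.17 (adjusted p = 0.0374), short of a 2-fold change. Ibsp and Dmp1, proteins of mineralized matrix, were at -0.63 ± 0.42 and -0.23 ± 0.59 with adjusted p of 0.556 and 0.916. Of 15 tested hypertrophy genes 1 rose and 3 fell (median -0.24), and of 13 tested mineralization genes 0 rose and 2 fell (median -0.34). Among all genes 0.625% rose and 1.05% fell. Without epiphyseal arrays 1 and 2 the medians of these 2 lists were -0.05 and -0.04, while Col10a1, Alpl, Phospho1 and Pth1r were called again. In that fit 1 hypertrophy gene rose and 4 fell, and 0 mineralization genes rose and 2 fell.

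The start of the Col10a1 gene is shown with that of Mmp3, because these were among the 3 largest falls of named genes. Leaving out epiphyseal arrays 1 and 2 moved the fitted difference of Mmp3 from -3.07 to -0.54. That of Col10a1 moved only from -3.38 to -3.26. Its differences within animals 1, 2, 4 and 5 were uneven, at -5.79, -3.11, -4.30 and -0.50. The reduced fit still holds every resting array, so it does not show that Col10a1 is independent of those 2 arrays. The sequences are RefSeq's in GRCr8, from 250 bases before to 50 after the start of the gene, on the plus strand at chr20:39737286-39737585 for Col10a1 and chr8:12925031-12925330 for Mmp3. Capitals mark a TATAAA box, and in Mmp3 also an AP-1 motif (TGACTCA or its reverse TGAGTCA), searched on both strands.
Col10a1: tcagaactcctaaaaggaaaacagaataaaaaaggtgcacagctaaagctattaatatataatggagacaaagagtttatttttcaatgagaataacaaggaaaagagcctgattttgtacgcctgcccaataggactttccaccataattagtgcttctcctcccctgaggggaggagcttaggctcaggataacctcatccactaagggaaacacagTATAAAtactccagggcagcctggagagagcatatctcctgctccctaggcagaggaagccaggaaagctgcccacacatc
Mmp3: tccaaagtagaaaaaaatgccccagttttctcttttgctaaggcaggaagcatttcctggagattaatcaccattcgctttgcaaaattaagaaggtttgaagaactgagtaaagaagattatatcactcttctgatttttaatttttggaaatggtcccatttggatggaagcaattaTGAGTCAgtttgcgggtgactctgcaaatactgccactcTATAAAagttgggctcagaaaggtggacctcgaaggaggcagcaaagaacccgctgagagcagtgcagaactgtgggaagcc
The TATAAA box begins at -31 in Col10a1 and at -32 in Mmp3, and the AP-1 motif at -71 in Mmp3. Of 33469 rat promoters of that length 14.2% hold TATAAA and 4.63% the AP-1 letters. These shares are over every promoter, while called genes count 1 promoter each. No share over the tested genes was taken, so an excess among called genes cannot be read from the counts below. The motif matches in Mmp3 do not overlap. A promoter was found for 95 of the 111 genes called lower, and 12 of these hold the AP-1 letters, Mmp3 and Phospho1 among them, and 7 TATAAA. For the 66 genes called higher, 46 had a promoter, of which 1 holds AP-1 and 7 TATAAA. The Gli motif GACCACCCA lies in 0.385% of all promoters and in 0 of the promoters of called genes, which says only that these letters are not in this window. These are matches of letters and not measured binding.

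The falls among matrix proteases and their inhibitors were lost without epiphyseal arrays 1 and 2. Mmp3, stromelysin, which cleaves proteoglycan and activates other proteases, read 5581, 10362, 392 and 230.4 in the epiphyseal arrays and 1001, 26.1, 120.4, 135 and 165 in the resting arrays. The epiphyseal arrays of animals 1 and 2 stand far above the other 2, and the resting array of animal 1 is the highest of its group. The difference was -3.07 ± 0.82 (adjusted p = 0.0411) with all arrays and -0.54 ± 0.70 (adjusted p = 0.883) without those 2. It was also not called with a pseudocount of 1 (adjusted p = 0.0537), scaling to one array median (0.0524), no filter (0.0515), the 9 arrays alone (0.0738) or no trend (0.0983). Without animal 2 alone it was -1.55 (adjusted p = 0.504), and without animal 1 or animal 3 the adjusted p was 0.098 and 0.0932. Adamts1, an aggrecan-cleaving protease, and Timp3, an inhibitor of such proteases, fell by 1.37 and 1.24 on the log2 scale, and their calls were lost in the same way, at -0.69 and -0.85 (adjusted p = 0.508 and 0.248). Adamts1 was also not called in the 9 arrays alone (adjusted p = 0.0516). Without animal 1 or animal 2 alone the adjusted p was 0.0796 and 0.205 for Adamts1 and 0.112 and 0.0635 for Timp3. Of 15 tested metalloproteinases, ADAMTS proteases and inhibitors 0 rose and 3 fell, against 0.625% and 1.05% of all genes. The list median moved from -0.63 to 0.06 without epiphyseal arrays 1 and 2. The osteoclast and macrophage markers are highest in the same arrays, as given above.

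Of the early response and stress genes Fos and Hspb1 fell. Fos, which encodes a subunit of the AP-1 factor, read 1864, 3542, 489 and 524 in epiphyseal cartilage and 305, 244, 103, 309.7 and 429 in the resting zone. The groups do not overlap, yet the difference went from -1.80 ± 0.38 (adjusted p = 0.0065) to -0.71 ± 0.35 (adjusted p = 0.472) without epiphyseal arrays 1 and 2. Without animal 1 or 2 alone the adjusted p was 0.0678 and 0.193. Egr1, another early response factor, also had no overlap but missed the threshold, at -1.47 ± 0.40 (adjusted p = 0.0517). Hspb1, a small heat shock protein, read 1300.1, 1069.7, 1783 and 1206 and then 454, 89.5, 719, 323 and 576, and its difference of -1.85 ± 0.33 was -1.82 ± 0.44 without those arrays. Of 14 tested early response and stress genes 0 rose and 2 fell (median -0.23), against 0.625% and 1.05% of all genes.

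S100 genes, which encode small calcium-binding proteins, were lower in the resting zone in 8 of 9 tested members, with a median of -0.85 that stood at -0.72 without the 2 arrays. S100a6 was nearly level within epiphyseal cartilage: the epiphyseal arrays read 4938, 4843, 5046 and 4271 and the resting arrays 1468, 589, 527, 795 and 706. Its difference was -2.55 ± 0.22 (adjusted p = 7.03e-08). S100a4, known from motile and fibroblast-like cells, read 6402, 4053, 2491 and 2052 and then 1814, 361, 712, 584 and 606, with the arrays of animal 1 highest in both tissues, and without the 2 arrays its difference went from -2.18 to -1.68 (adjusted p = 0.0524). S100a16 fell by 1.09 on the log2 scale, also not called without them (-0.89, adjusted p = 0.186), without animal 2 (adjusted p = 0.164) or with a pseudocount of 64 (-0.99). S100b, which chondrocytes also express, was the only tested member above 0, at 0.42 ± 0.16 (adjusted p = 0.211). In total 0 of the 9 rose and 3 fell, against 0.625% and 1.05% of all genes. Anxa8, a calcium-dependent membrane-binding annexin, read 8239, 12382, 13885 and 12919.8 in the epiphyseal and 2462, 2465, 1805, 2963 and 2438 in the resting arrays. The groups are far apart, with a difference of -2.20 ± 0.18 (adjusted p = 7.03e-08).

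Fam151a and Cldn11 had higher signals in epiphyseal cartilage than in any other zone. Fam151a read 1732, 1989, 5194 and 2883 in the epiphyseal arrays, 459, 262, 269.6, 528 and 375 in the resting arrays and on average 198, 149.6 and 267 in the proliferative, transition and hypertrophic zones. Its difference from the resting zone was -2.74 ± 0.29 (adjusted p = 2.82e-06). Cldn11, a claudin known from tight junctions of myelin and testis, read 5596, 5738, 4875 and 3559.5 and then 2297, 1409, 1264, 867 and 460.5, with later zones at means of 81.9 to 275. Within each tissue animal 5 was lowest, and the difference was -2.13 ± 0.33. Igfbp5, a binding protein of insulin-like growth factors, read 2260.1, 1244, 6094 and 2719 and then 915, 493, 546, 726 and 443, and all 4 of its tested probe sets were below 0, from -2.11 to -1.39, 3 of them called. The call of the probe set that stands for the gene was lost without animal 4, whose epiphyseal array is the highest (adjusted p = 0.0721), and without epiphyseal arrays 4 and 5 (0.143). Of 13 growth hormone and insulin-like growth factor genes 0 rose and 1 fell, Igfbp5 itself (median -0.13). The shares over all genes were 0.625% and 1.05%.

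Further calls lay in genes of retinoid, glutathione and lipid handling. Aldh1a3, an enzyme that makes retinoic acid, read 98.9, 165, 508 and 91.1 in the epiphyseal arrays and 29.5, 78.5, 16.8, 10 and 12.1 in the resting arrays, and animal 4 had the highest value (-2.12 ± 0.40, adjusted p = 0.00225, but 0.104 in a fit of the 9 arrays alone). Rbp4, the carrier of retinol, rose instead, from 1136, 1034, 2043 and 1886 to 5662, 5399.6, 3587, 5519 and 3469, with no overlap (1.65 ± 0.27, adjusted p = 0.000559). The 10 tested retinoic acid genes thus held 1 rise and 1 fall, with a median of -0.01. Gpx2, a glutathione peroxidase, went from 83.4, 182, 883 and 384 to 10.9, 9.0, 59.1, 38.5 and 132; the epiphyseal array of animal 1 lay among the resting values (-2.45 ± 0.45). It was not called without epiphyseal arrays 4 and 5 (adjusted p = 0.0859). Of 17 glutathione and antioxidant genes 0 rose and 1 fell, Gpx2 itself (median -0.13). For both lists the shares over all genes were 0.625% higher and 1.05% lower. Pnpla3, a lipase of lipid droplets, fell by 2.17, and Slco2b1, a transporter of organic anions, by 2.32 on the log2 scale. A second probe set of Slco2b1 gave 0.24 (adjusted p = 0.907), and one of the 3 of Pdlim5, an adaptor of the cytoskeleton, gave 0.41 (adjusted p = 0.836) beside the called -2.21 ± 0.43. Col18a1, a collagen of basement membranes, was called at -2.11 ± 0.53 with overlapping arrays. Without epiphyseal arrays 1 and 2 the adjusted p was 0.228 for Slco2b1, 0.0589 for Pdlim5 and 0.598 for Col18a1. The difference of Pdlim5 was then -2.22, hardly moved, while that of Slco2b1 was -1.75 and that of Col18a1 -1.15. Without the replicate block Col18a1 was not called either (adjusted p = 0.0789). Leaving out 1 animal gave adjusted p of 0.0985 for Slco2b1 (animal 1), 0.0603 for Pdlim5 (animal 2) and 0.233, 0.276 and 0.0618 for Col18a1 (animals 1, 2 and 4).

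**Figure D4:**
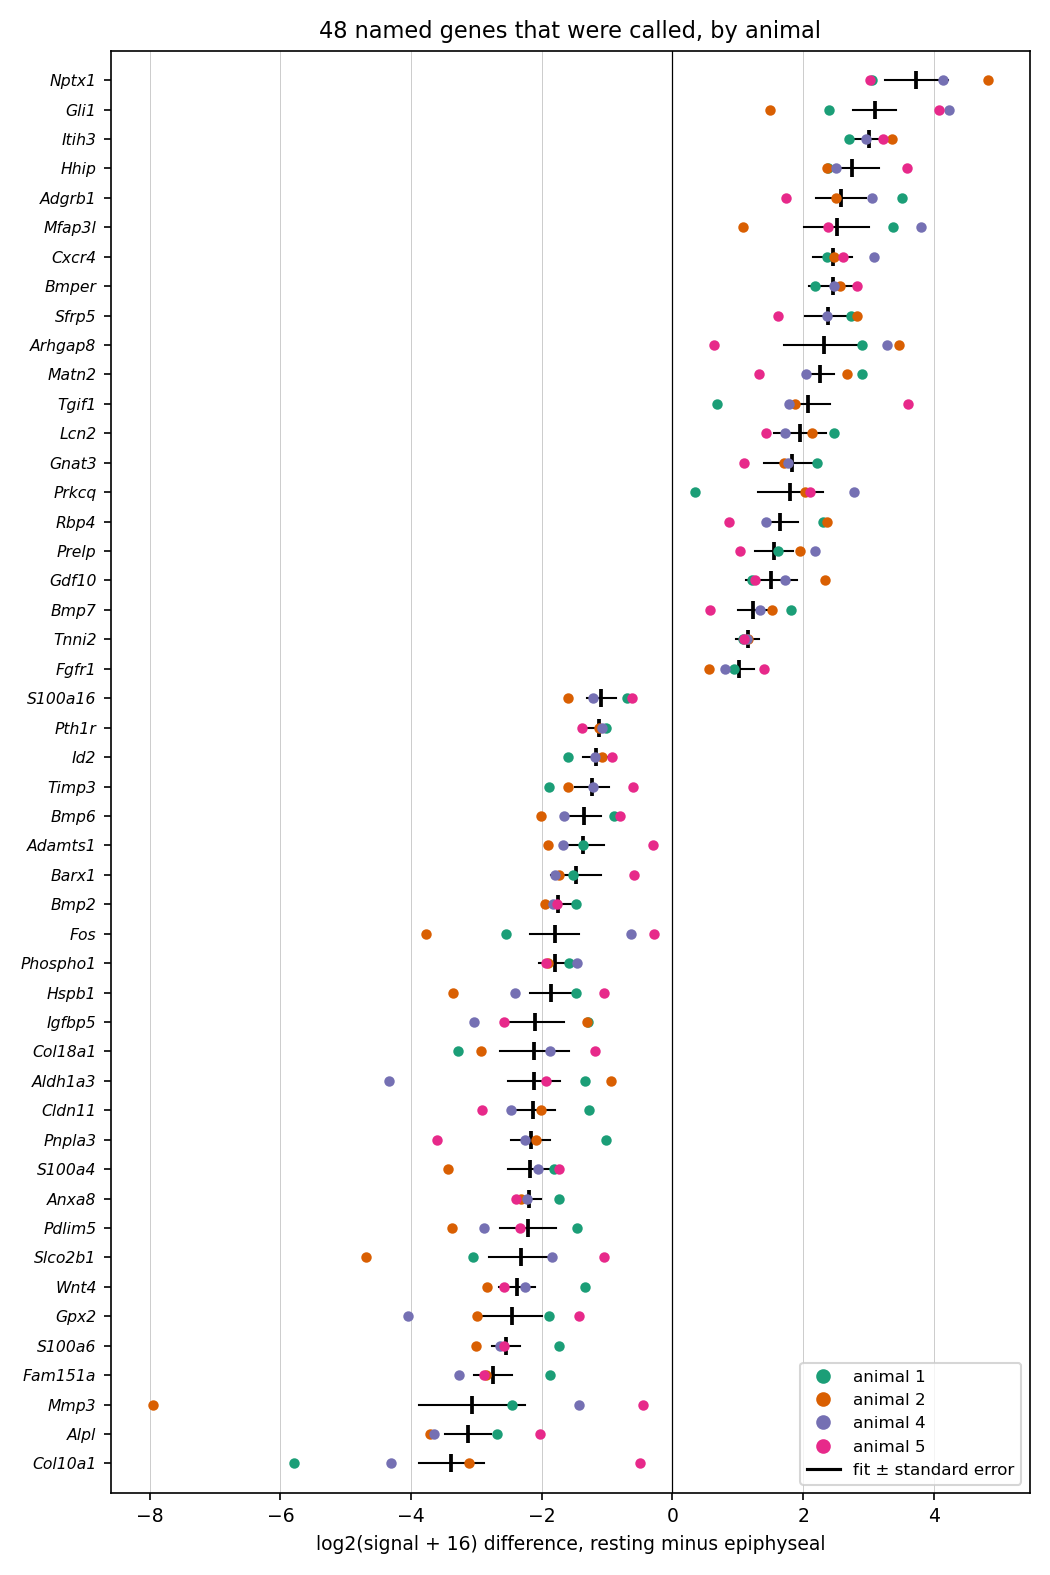
Log2(signal + 16) difference, resting minus epiphyseal, in each of the 4 animals with both tissues (coloured points) for the 48 named genes that were called, with the fitted difference and its standard error in black. Every animal lies on the same side of 0 for each gene. The genes named for the largest rises and falls were picked with the same sign in all 4 animals. For these the agreement follows from that choice, and for the other genes it follows in part from their calls. Mmp3 and Col10a1 have the widest spread, from -7.95 to -0.45 and from -5.79 to -0.50.

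Genes known as markers of resting or immature chondrocytes moved both ways. Of 10 tested members 1 rose, Sfrp5, and 1 fell, Barx1, with a median of -0.19. Among all genes 0.625% rose and 1.05% fell. Barx1, a homeobox gene of developing cartilage, read 1065, 898, 2411 and 1300.5 and then 360.2, 257, 291, 683 and 861 (-1.48 ± 0.38, adjusted p = 0.033), and was not called without epiphyseal arrays 1 and 2, at a larger difference (-1.89, adjusted p = 0.0556), or without animal 1, 2 or 3 (adjusted p = 0.103, 0.218 and 0.0904), nor without epiphyseal arrays 4 and 5 (0.217), with scaling to one array median (0.0629) or with no trend (0.0857). Grem1, an antagonist known from skeletal stem cells, had means of 3074 ± 777 (SD, n = 4) in epiphyseal cartilage and 1787 ± 566 (SD, n = 5) in the resting zone (adjusted p = 0.313), and both were above the 30.7 of the proliferative zone. None of 10 joint surface genes was called (median -0.30). The cartilage matrix list gave 16 of 16 tested members above 0 with a median of 0.25, but a median of -0.16 without the 2 epiphyseal arrays, and 1 call: Prelp, a leucine-rich protein of the matrix, rose from 208, 153, 222 and 388 to 666, 638, 952, 1060.5 and 817 (adjusted p = 0.00218). Without those arrays, or without animal 2, the adjusted p of Prelp was 0.0551 and 0.0635, and without those arrays its difference was 1.48 against 1.56 with them. Of 24 cell cycle genes 21 were above 0 (median 0.35, and 0.76 without those arrays) and 0 were called. Kif23, a kinesin of cell division, was called without those arrays, where its difference was 1.58 (adjusted p = 0.00278) against 0.88 with them (0.0869). Nusap1, a spindle protein, came nearest: 834, 709, 692 and 524 in the epiphyseal and 1194, 1076, 1174, 1095 and 1127 in the resting arrays, which do not overlap (adjusted p = 0.0559). Of 8 genes of fibroblast growth factor signalling 1 rose, Fgfr1, and 0 fell, with 3 above 0 and 5 below (median -0.14). Spry4 and Dusp6 were not called, at -0.91 ± 0.26 and -1.29 ± 0.43 (adjusted p = 0.0655 and 0.135). Other probe sets of Dusp6 gave -1.77 (adjusted p = 0.157) and -2.95, which passed the rule (adjusted p = 0.029). Without epiphyseal arrays 1 and 2 the gene's difference was -0.17 (adjusted p = 0.948). Of 13 glycolysis and hypoxia-induced genes 0 were called (median 0.19).

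**Figure D5:**
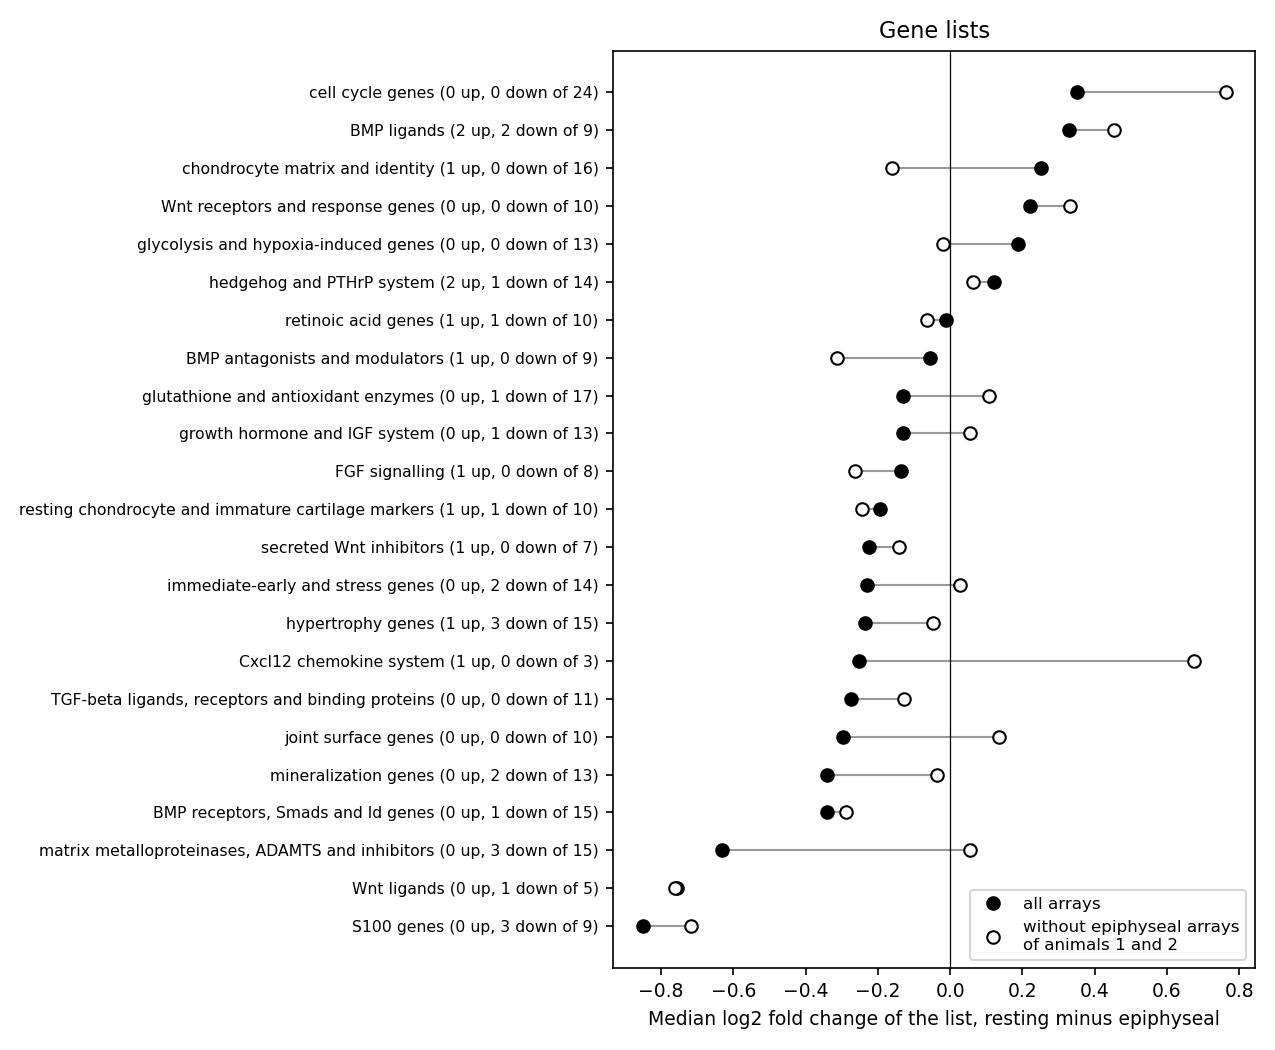
Median log2 difference, resting minus epiphyseal, of 23 gene lists with all arrays (filled) and without epiphyseal arrays 1 and 2 (open); row labels give calls up and down out of the tested members. The S100 and Wnt ligand lists keep their place at the low end, while the metalloproteinase list moves from -0.63 to 0.06 and the cartilage matrix list from 0.25 to -0.16.

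Most genes called lower in the resting zone had their highest mean in the hypertrophic zone. By mean log2 signal, 71 of the 111 (64%) peaked in the hypertrophic zone, 27 (24.3%) in epiphyseal cartilage, 12 in the transition zone and 1 in the proliferative zone. Over all tested genes 25.6% peaked in the hypertrophic zone and 15% in epiphyseal cartilage. Genes called lower cannot peak in the resting zone, so these shares are a description and were not tested. Of the 66 genes called higher, 34 (51.5%) peaked in the resting zone, 23 in the proliferative, 5 in the hypertrophic and 4 in the transition zone. S100a6, Anxa8, Bmp2 and Alpl peaked in the hypertrophic zone: the mean of Anxa8 was 11856 in epiphyseal cartilage, 2427 in the resting zone, 7996, 25841 and 28294 in the proliferative, transition and hypertrophic zones. The resting zone had the lowest mean of the 5 tissues for each of these 4 genes.

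Median signals ran from 171 to 245 in the epiphyseal and from 164 to 205 in the resting arrays, and the log2 ratio of 3' to 5' signal of actin, a measure of RNA quality, averaged 4.03 ± 0.67 (SD, n = 4) and 4.03 ± 0.25 (SD, n = 5). That of hexokinase was lower in epiphyseal cartilage, at -1.78 ± 1.62 against 0.09 ± 1.35. The spiked poly-A control dap read 35731 ± 5461 and 35874 ± 9345. Of the 290 calls, 283 had the same sign in 4 of 4 animals and 231 had non-overlapping arrays. The calls were chosen on these same arrays, so both counts follow in part from that choice. A share without overlap is given over genes only (5.38%).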

How the data were processed

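Total RNA of dissected cartilage (50 to 100 ng) was amplified, labelled with biotin and hybridized to Affymetrix arrays, per the labels' protocols. The authors deposited 1 intensity for each probe set, a linear MAS5 signal per the submitters' processing notes. Its version is not given in these sources. After trimming 2% of probe sets at each end the mean signal was 500.0 in every array. Detection p-values were not used, and the number of arrays, not a known depth, limits the precision.

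From these values log2(signal + 16) was computed for the 31099 probe sets, without 57 controls. Tested were probe sets that exceeded the median of the array in 4 or more of the 24 arrays, which left 19213 (61.9%): 13956 with 1 symbol, 323 with several and 4934 with none. Only those with 1 symbol were named, by the platform annotation updated through gene identifiers to the rat table of GRCr8. The tested probe set of highest mean stands for a gene (10558 genes).

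limma 3.58.1 in R 4.3.3 fitted zone and animal (a fixed replicate block) to all 24 arrays with a mean-variance trend and 15 residual degrees of freedom. Adjusted p-values are Benjamini-Hochberg over all tested probe sets. The labels say that equal numbers are 1 animal. Deviations from the group mean correlated at r = 0.196 to 0.36 in the 4 same-animal pairs of resting and epiphyseal arrays (median 0.266). In the 16 other pairs r was -0.256 to 0.188 (median -0.098), so the highest of these came close to the lowest same-animal pair. The fit was tested on simulated data with known changes.

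Named genes are the called genes with the 15 largest rises and the 15 largest falls and 1 sign in all 4 animals, every tested member of the hedgehog list, and of each other list the called members and, where fewer than 3 were called, up to 3 of smallest adjusted p. The comparison, the lists and this rule were chosen with earlier results of these data known. The alternatives were pseudocounts of 1 and 64, quantile and median scaling, other filters, other block choices, only the 9 arrays, no trend, array weights, and leaving out animals or pairs of epiphyseal arrays. Figures were drawn with matplotlib 3.10.9.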

Additional observations from a re-analysis of the deposited data

Results flagged for a closer look

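The 48 named genes that were called and the cell type marker lists were looked at for a single array far from its group, in both tissues. Of these 116 groups 6 (5.2%) had such an array, and chance flags about 1 in 20. Mfap3l had 1 high epiphyseal array, that of animal 2, at 140.1 against 7.2 to 13.6 in the others. Sfrp5 had 1 low epiphyseal array, also that of animal 2, at 579.6 against 823.1 to 883.3. Pnpla3 had 1 low epiphyseal array, that of animal 1, at 247.9 against 559.3 to 592.2, and 1 low resting array, that of animal 5, at 31.3 against 97.8 to 127.9. Arhgap8 had 1 low resting array, that of animal 3, at 95.1 against 219.4 to 270.6. Gdf10 had 1 low resting array, that of animal 1, at 179.0 against 329.7 to 396.7.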

How the results depend on the processing

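All 290 calls kept their sign under every alternative that tested them. The alternatives share all or most of the arrays on which the calls were chosen. Of the 48 called named genes 23 kept their call in every one of 18 settings that tested them. Gli1, Hhip, Col10a1, Alpl, Wnt4, Bmp2 and S100a6 were among these. The count higher was 68 to 120 and the count lower 71 to 175 when 1 animal was left out, against 125 and 165, lowest without animal 2, where 130 of the 290 were called again. Without epiphyseal arrays 1 and 2 the count lower was 106, and without those of animals 4 and 5 it was 360. The cause was not tested. Without the replicate block 108 were higher and 144 lower, and with a random block 143 and 189. Scaling to one array median gave 131 and 131, which moved the share of calls that were higher from 43.1% to 50.0%. With 4 animals in both groups, 2727 probe sets had an unadjusted p below 0.05, 482 an adjusted p below 0.05 at any fold. Fold changes of dim probe sets depend on the pseudocount. Label wording and tissue cannot be told apart.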

Other observations

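The groups in this section were put together after their values had been seen, so their counts only describe these arrays. All 19 tested genes of cholesterol synthesis had a negative difference, resting minus epiphyseal, with a median of -0.55 against 0.02 over all genes and -0.63 without epiphyseal arrays 1 and 2. Their mean difference was -0.29, -0.45, -0.76 and -0.48 in animals 1, 2, 4 and 5. Tm7sf2, a sterol reductase, read 375, 258, 551 and 453 in the epiphyseal and 86.0, 118, 99.2, 116 and 208 in the resting arrays, which do not overlap, and the log2 difference was -1.58 ± 0.28 (adjusted p = 0.00119). Hsd17b7, a sterol ketoreductase, was the other call, at -1.13 ± 0.25 (adjusted p = 0.0114), and not without those arrays (adjusted p = 0.182). Fdps, the farnesyl diphosphate synthase, had an adjusted p of 0.00883 at -0.96 ± 0.21, short of 2-fold. Of 12 other tested lipid genes under sterol control 0 rose and 1 fell, 5 were above 0 and 7 below, and the median was -0.12. Among all genes 0.625% rose and 1.05% fell. Acss2, which makes acetyl-CoA from acetate, fell by 1.09 ± 0.23 (adjusted p = 0.00601). The sterol regulators Srebf1 and Srebf2 were at 0.34 and 0.09 (adjusted p = 0.46 and 0.934).

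Collagen chains outside the cartilage fibre were negative in 15 of 16 tested genes (median -0.85), and 4 were called lower. Their median was -0.20 without epiphyseal arrays 1 and 2. Among all genes 0.625% were called higher and 1.05% lower. Col6a1 and Col6a2, chains of the collagen around each chondrocyte, fell by 1.10 ± 0.19 (adjusted p = 0.00103) and 1.03 ± 0.19 (adjusted p = 0.00147), and differed by -1.24 and -1.33 without those arrays. Col12a1 and Col18a1 fell by 1.44 ± 0.35 and 2.11 ± 0.53 (adjusted p = 0.0213 and 0.0289) and were not called without them, at -1.20 and -1.15 (adjusted p = 0.25 and 0.598). The third chain gene, Col6a3, was at -0.41 ± 0.16 (adjusted p = 0.206). Pappa2, a protease that cleaves Igfbp5, rose by 1.59 ± 0.31 (adjusted p = 0.00303), while its second probe set gave 0.78 (adjusted p = 0.418). Without epiphyseal arrays 1 and 2 it was at 1.35 and not called (adjusted p = 0.112). Igfbp5 fell by 2.11 ± 0.45. Of 5 tested genes of binding protein cleavage these were the only calls, 1 higher and 1 lower, with a median of 0.07. Stc1, Stc2 and Igfbp3 were not called, at 0.43, 0.07 and -1.045 (adjusted p = 0.532, 0.965 and 0.549). A link between Pappa2 and Igfbp5 in these tissues was not tested. Sema3c and Sema3d, secreted guidance proteins, rose by 1.25 ± 0.19 and 1.37 ± 0.38 (adjusted p = 0.000325 and 0.0499), and Nrp1, a receptor of that class, fell by 1.03 ± 0.22 (adjusted p = 0.00883), with a second probe set at -0.82 (adjusted p = 0.147). Without epiphyseal arrays 1 and 2 Sema3d was at 0.69 (adjusted p = 0.587) and Nrp1 at -0.97 (adjusted p = 0.124), neither called. Of 15 tested semaphorins, plexins and neuropilins 2 rose and 1 fell, 10 were below 0, and the median was -0.16. Olfm1, a secreted olfactomedin, Reln, a large matrix glycoprotein of the brain, and Tbx18, a T-box factor, had their highest mean in epiphyseal cartilage and fell by 1.77, 1.58 and 1.42 from there to the resting zone. For Olfm1 the epiphyseal mean of 889 was close to the 861 of the hypertrophic and the 775 of the proliferative zone. Its resting mean was 270 and its transition mean 640. A second probe set of Reln was not called, at -1.71 (adjusted p = 0.0601).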
